A study of Mus musculus with 22 samples.

Results

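The 10 genes described here mark tissue macrophages and their scavenging functions, and are Emr1, Cd68, Csf1r, Csf1, Cd14, Mrc1, Cd163, Marco, Chil3 and Cx3cr1. They were chosen by symbol from the 770 genes of a NanoString panel, and all 10 were found among its rows. The panel was read in total RNA of tumours that grew from EMT-6 cells, a mammary carcinoma line of the mouse, after implantation into a mammary fat pad of BALB/c animals, which were allocated to treatment at a tumour volume near 100 mm3. Each of the 22 libraries came from 1 mouse, and tumours were taken on day 6. The question the design asks is how the tumour RNA differs between mice given NHS-muIL12, avelumab, both or neither.

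Avelumab, an antibody against PD-L1, was given into a vein at 200 µg on days 0, 3 and 6, and NHS-muIL12, mouse interleukin-12 fused to an antibody that binds DNA of necrotic tissue, was given under the skin once on day 0. The avelumab groups were avelumab alone (0 µg NHS-muIL12, 3 mice), combination 2 µg (4 mice) and combination 10 µg (4 mice). The groups without avelumab were isotype control (0 µg NHS-muIL12, 4 mice), NHS-muIL12 2 µg (4 mice) and NHS-muIL12 10 µg (3 mice). The labels give the isotype mice no agent and state no dose for the isotype antibody. All mice carried the same tumour line in a host of 1 strain with its own immune cells, so no group shows how another tumour would behave. In RNA from a whole tumour, fewer cells of a type and less RNA per cell cannot be told apart.

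Macrophages arise from blood monocytes or from precursors seeded before birth, and they depend on signalling through the Csf1 receptor for survival. In tumours they clear debris through scavenger receptors, take up antibody-coated cells through Fc receptors and present antigen after exposure to interferon-gamma, the cytokine that interleukin-12 induces in NK and T cells. None of the 10 genes is expressed only in macrophages: Cd14 is also carried by neutrophils, Mrc1 by some dendritic and endothelial cells, Cx3cr1 by some NK and dendritic cells, Emr1 by eosinophils, and Csf1 is made by tumour and stromal cells.

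The RefSeq promoter table for GRCm38.p6 held 7 of the 10 genes, matched by symbol: Cd68, Csf1, Mrc1, Cd163, Marco, Chil3 and Cx3cr1. The 250 bases before the start used in that table are printed for Cd68, a general macrophage gene that rose in these tumours, and for Mrc1 and Cd163, the pair of scavenger receptors whose signals followed each other most closely from mouse to mouse. Capitals mark GAGGAA, the core bound by the macrophage factor PU.1, or its reverse complement, and the AP-1 motif TGANTCA; each sequence runs 5′ to 3′ along the gene's strand. The last 15 bases of the Cd163 window lie inside the gene as RefSeq annotates it.
Cd68 (chr11:69666171-69666420, minus strand): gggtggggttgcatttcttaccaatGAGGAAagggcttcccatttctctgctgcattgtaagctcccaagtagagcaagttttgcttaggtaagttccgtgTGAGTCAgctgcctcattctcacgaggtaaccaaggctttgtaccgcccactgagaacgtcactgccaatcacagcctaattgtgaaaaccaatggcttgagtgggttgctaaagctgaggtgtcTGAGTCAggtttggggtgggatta
Mrc1 (chr2:14229164-14229413, plus strand): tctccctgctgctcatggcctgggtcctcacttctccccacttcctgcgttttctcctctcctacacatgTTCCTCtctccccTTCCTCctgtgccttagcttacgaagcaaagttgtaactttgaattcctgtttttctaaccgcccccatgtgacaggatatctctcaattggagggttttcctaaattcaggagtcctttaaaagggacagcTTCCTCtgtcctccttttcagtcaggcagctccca
Cd163 (chr6:124304401-124304650, plus strand): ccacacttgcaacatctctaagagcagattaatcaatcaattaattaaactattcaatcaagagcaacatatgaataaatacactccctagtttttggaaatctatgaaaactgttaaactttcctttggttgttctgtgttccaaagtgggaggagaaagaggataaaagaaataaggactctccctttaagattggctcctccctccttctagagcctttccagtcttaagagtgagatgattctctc
The Cd68 window held GAGGAA 1 time and TGANTCA 2 times, the Mrc1 window held GAGGAA 3 times and the Cd163 window held neither. Both strands were searched in the same way for the core of the interferon-stimulated response element, which did not stand in these 3 windows, and no matches overlapped. Of 32851 RefSeq promoter windows of the same length, 23.3% held GAGGAA, 6.75% held TGANTCA and 2.98% held the core of the response element. A match describes the letters of the window and shows no binding.

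Values are the deposited signal, background-subtracted and scaled by the authors, and changes are differences of log2(signal + 1) between group means in a limma model over 750 genes, with Benjamini-Hochberg adjustment within each comparison and a threshold of 0.05. Total signal per library lay between 300174 and 511105, with combination 10 µg replicate 3 the highest. Libraries differed at their dim end, where the lower quartile of signal ran from 3.36 to 51.5. In 4 libraries it was 33.3 to 51.5, against at most 20.9 in the other 18. They were replicates 1 and 2 of isotype and replicate 3 of each group given NHS-muIL12 alone. What set these libraries apart was not tested, and the main results are also given without them.

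Emr1 encodes the adhesion receptor F4/80 (now Adgre1), the classic surface marker of mouse macrophages. On the deposited signal it separated the mice by NHS-muIL12. With avelumab, its signal was 178, 109 and 300.2 at 0 µg, 440.3, 367, 376 and 514 at 2 µg, and 378, 333, 776 and 442 at 10 µg. Without avelumab, it was 229, 174, 189 and 331 at 0 µg, 409, 423, 414 and 392 at 2 µg, and 381, 415 and 499 at 10 µg. All 15 mice given NHS-muIL12 lay above all 7 mice not given it, the lowest of the 15 at 333 and the highest of the 7 at 331. These were combination 10 µg replicate 2 (log2 8.384) and isotype replicate 4 (8.377). Their libraries had mean log2 signals of common reference (housekeeping) genes of 8.862 and 8.850. Set against those means the order of these mice turns, and the full separation is lost. On the deposited signal, 2.4% of the 750 genes split all 15 mice from all 7, 18 genes, all of them higher with NHS-muIL12. They included the Fc receptors Fcgr1, Fcgr3 and Fcgr4 and, of class II antigen presentation, Cd74, H2-Aa, H2-Ab1, H2-Dma and H2-Eb1.

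Averaged over groups, Emr1 was 2.13-fold higher in the 4 groups given NHS-muIL12 than in the 2 groups not given it (95% interval 1.62 to 2.80; log2 change 1.09 ± 0.19 SE, adjusted p = 5.40e-04). In this comparison 22.7% of genes passed the threshold, 155 higher and 15 lower. The split was 96 higher and 142 lower with each library centred on its median, and 124 and 166 after quantile normalization, which moved the median change of all genes by -0.32 and -0.19. Of the 10 macrophage genes 2 passed, Emr1 and Cd68. The median log2 change was 0.41 over the 10 genes and 0.07 over all 750. The Emr1 rise kept its side of the threshold in all 31 alternatives, with log2 changes of 0.74 to 1.28, and without the 4 libraries of high dim-end signal it was 0.98 ± 0.24 (adjusted p = 0.0164). On library medians it was 0.78 and after quantile normalization 0.74, where the median change of all genes was lower by the shifts given above.

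Group by group, Emr1 averaged 482 ± 201 in combination 10 µg tumours and 231 ± 70.8 in isotype tumours (SD, n = 4 each), 2.03-fold higher (log2 change 1.02 ± 0.29, adjusted p = 0.0187). Against the avelumab tumours, at 196 ± 96.9 (SD, n = 3), it was 2.53-fold higher in combination 10 µg (adjusted p = 0.00797) and 2.33-fold higher in combination 2 µg, which averaged 425 ± 68.1 (adjusted p = 0.0282). The remaining contrasts with isotype were of like size but missed the threshold: the log2 change was 0.91 ± 0.29 for combination 2 µg (adjusted p = 0.0527), 0.94 ± 0.31 for NHS-muIL12 10 µg (adjusted p = 0.0626) and 0.87 ± 0.29 for NHS-muIL12 2 µg (adjusted p = 0.324). These comparisons share their isotype or avelumab mice and are not independent of each other. The call for combination 10 µg against isotype was lost without isotype replicate 2 (0.91, adjusted p = 0.068) or combination 10 µg replicate 3 (0.77, adjusted p = 0.083), without the 4 libraries of high dim-end signal (0.86, adjusted p = 0.196), and after quantile normalization (0.57, adjusted p = 0.0686). That of combination 2 µg against avelumab was lost without avelumab replicate 2 or 3 (1.21 and 0.86) or combination 2 µg replicate 1 or 4 (1.20 and 1.13), and on library medians (0.79, adjusted p = 0.0803). That of combination 10 µg against avelumab was lost without avelumab replicate 3 (0.98, adjusted p = 0.060) and on library medians (0.86, adjusted p = 0.0596). Fits of only the groups compared called no gene in either comparison with avelumab, nor in combination 10 µg against isotype. Without isotype replicate 4 both combination 2 µg (1.10, adjusted p = 0.029) and NHS-muIL12 10 µg (1.12, adjusted p = 0.033) passed against isotype.

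No difference in Emr1 was detected between doses or with avelumab. The log2 change was 0.07 (95% interval -0.58 to 0.72) for NHS-muIL12 10 µg against 2 µg and 0.12 (-0.48 to 0.72) for combination 10 µg against combination 2 µg. It was 0.04 (-0.56 to 0.64) for combination 2 µg against NHS-muIL12 2 µg and 0.09 (-0.56 to 0.74) for combination 10 µg against NHS-muIL12 10 µg. In order of mean signal the groups ran combination 10 µg, NHS-muIL12 10 µg (432 ± 60.9), combination 2 µg, NHS-muIL12 2 µg (409 ± 13.3), isotype and avelumab; the means of the first 4 differed by less than the SD within combination 10 µg, and those of isotype and avelumab by less than the SD within either.

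**Figure D1:**
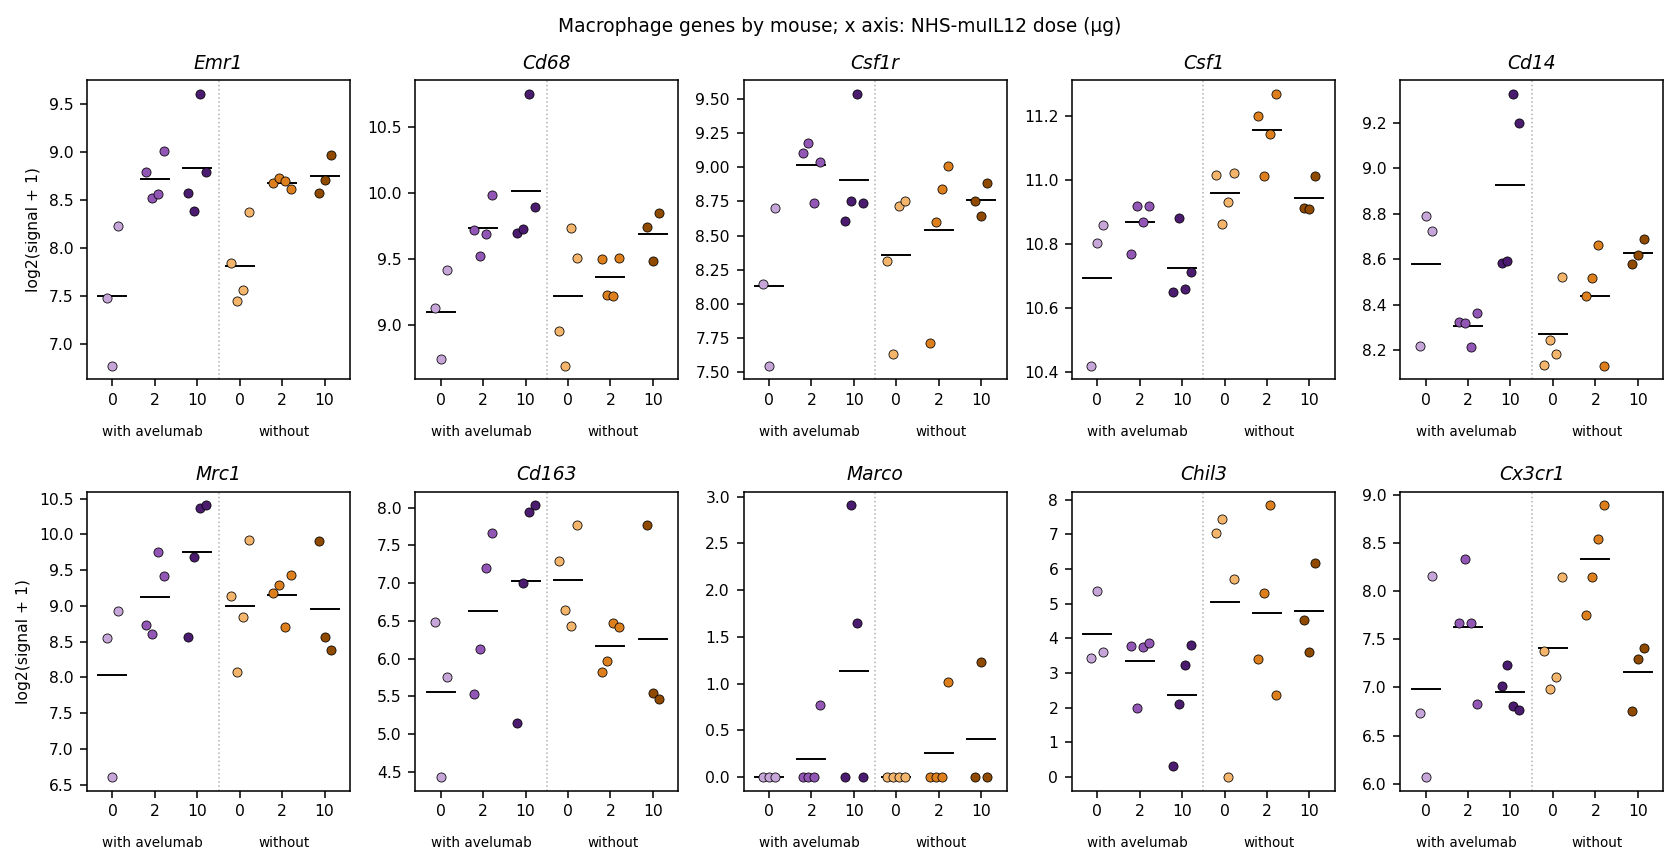
Signal of the 10 macrophage genes as log2(signal + 1), 1 point per mouse and a bar at the group mean, by NHS-muIL12 dose in µg, with avelumab on the left of the dotted line and without it on the right. Each panel has its own scale. In the Emr1 panel every mouse at 2 or 10 µg lies above every mouse at 0 µg, while the Mrc1, Cd163 and Chil3 panels show wide spreads within groups.

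Cd68, a glycoprotein of lysosomes in macrophages and other phagocytes, was the other gene of the 10 that rose with any NHS-muIL12. In avelumab-treated mice the signal was 557, 426 and 683 at 0 µg, 842, 734, 824 and 1013 at 2 µg, and 827, 845, 1721 and 951 at 10 µg. In mice without avelumab it was 495, 411, 851 and 725 at 0 µg, 721, 597, 595 and 727 at 2 µg, and 854, 713 and 918 at 10 µg. The highest value by far was combination 10 µg replicate 3, which also had the highest total signal, and only 5 of the 15 mice given NHS-muIL12 lay above the highest of the 7 not given it, isotype replicate 3.

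The difference between mice given NHS-muIL12 and those not given it was 1.46-fold for Cd68 (95% interval 1.15 to 1.84; log2 change 0.54 ± 0.16, adjusted p = 0.0191). Cd68 averaged 1086 ± 427 in combination 10 µg tumours and 621 ± 203 in isotype tumours (SD, n = 4 each), 1.74-fold higher (log2 change 0.80 ± 0.25, adjusted p = 0.0311), and against avelumab tumours, at 555 ± 128 (n = 3), it was 1.90-fold higher (adjusted p = 0.0227). With NHS-muIL12 alone the log2 change against isotype was 0.47 ± 0.27 at 10 µg (adjusted p = 0.311) and 0.14 ± 0.25 at 2 µg (adjusted p = 0.934). Without the 4 libraries of high dim-end signal the change with any NHS-muIL12 was 0.33 (adjusted p = 0.213), and that of combination 10 µg against isotype 0.40 (adjusted p = 0.430). The call with any NHS-muIL12 was also lost with libraries centred on their medians (0.23, adjusted p = 0.310) and after quantile normalization (0.19, adjusted p = 0.199), and that of combination 10 µg against isotype was 0.61 (adjusted p = 0.110) and 0.28 under these scalings.

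Single libraries also decided Cd68 calls. For any NHS-muIL12 the call was lost without isotype replicate 2 (log2 change 0.45, adjusted p = 0.051) or without avelumab replicate 3 (0.45, adjusted p = 0.080). For combination 10 µg against isotype it was lost without combination 10 µg replicate 3 (0.55), isotype replicate 1 (0.71) or isotype replicate 2 (0.62), with adjusted p values of 0.126, 0.089 and 0.109. For combination 10 µg against avelumab it was lost without avelumab replicate 2 or 3 (0.94 and 0.75) or combination 10 µg replicate 3 (0.68), on library medians (0.45, adjusted p = 0.297) and after quantile normalization (0.42, adjusted p = 0.118).

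Csf1r, the receptor through which macrophages receive their survival signal, did not pass the threshold in any of the 15 comparisons. The signal with avelumab was 282, 186 and 416 at 0 µg, 549.5, 577, 426 and 525 at 2 µg, and 389, 431, 742 and 426 at 10 µg. The mice not given avelumab had 318, 198, 420.0 and 431 at 0 µg, 209, 388, 459 and 514 at 2 µg, and 429.5, 398 and 471 at 10 µg. The combination 2 µg mice were high as a group, 1 mouse at 2 µg without avelumab was nearly as low as the lowest isotype mouse, and 8 of the 15 mice given NHS-muIL12 lay above the highest of the other 7. Its change with any NHS-muIL12, 0.56 ± 0.20 (1.48-fold, 95% interval 1.10 to 1.98), was as large as that of Cd68 but had an adjusted p of 0.0538. It passed in 10 of 31 alternatives, among them those without NHS-muIL12 2 µg replicate 1 (0.63, adjusted p = 0.018), isotype replicate 3 (0.62), isotype replicate 4 (0.63) or avelumab replicate 4 (0.70, adjusted p = 0.021). Without the 4 libraries of high dim-end signal it was 0.33 (adjusted p = 0.367).

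Csf1, the ligand of that receptor, was the steadiest of the 10 genes, with a residual SD of 0.12 on the log2 scale. With avelumab, its signal was 1369.7, 1785 and 1857 at 0 µg, 1746, 1935, 1870.3 and 1936 at 2 µg, and 1605, 1886, 1617 and 1679 at 10 µg. Without avelumab, it was 2070.2, 1862, 1951 and 2081 at 0 µg, 2351, 2067, 2261 and 2468 at 2 µg, and 1929, 1923 and 2063 at 10 µg. At each dose all mice given avelumab lay below all mice without it, while across doses the ranges overlapped. Such a separation at all 3 doses, in 1 direction, was found for 0.267% of the 750 genes, 2 genes, of which Csf1 was the one lower with avelumab; it was looked for after the Csf1 values were seen. NHS-muIL12 gave a log2 change of 0.10 ± 0.07 in Csf1 (adjusted p = 0.319). In combination 10 µg against isotype it was -0.23 (adjusted p = 0.124), and -0.73 (adjusted p = 0.00367) after quantile normalization.

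Across doses, Csf1 was 0.837-fold with avelumab of its level without it (95% interval 0.763 to 0.918; log2 change -0.26 ± 0.06). Its unadjusted p of 8.17e-04 became an adjusted p of 0.103, so Csf1 did not pass, and 0% of the 750 genes passed in that comparison, against 128 with an unadjusted p under 0.05. At matched doses the log2 change was -0.26 ± 0.11 for avelumab against isotype, -0.29 ± 0.10 for combination 2 µg against NHS-muIL12 2 µg and -0.22 ± 0.11 for combination 10 µg against NHS-muIL12 10 µg. Their adjusted p values were 0.715, 0.337 and 0.932. The first of these had the other sign, 0.032, when each library was centred on its median.

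Cd14, the co-receptor that hands bacterial lipopolysaccharide to Tlr4, passed the threshold in 1 comparison, combination 10 µg against isotype. In avelumab-treated mice the signal was 297, 441 and 422 at 0 µg, 319, 319, 296 and 328 at 2 µg, and 382, 385, 641 and 587 at 10 µg. In mice without avelumab it was 280.1, 302, 289.9 and 366 at 0 µg, 346, 365, 405 and 279.6 at 2 µg, and 382, 392 and 412 at 10 µg. All 4 combination 10 µg mice lay above all 4 isotype mice and all 4 combination 2 µg mice, and replicates 3 and 4 were the highest of all 22. The share of all tested genes that separate these groups in this way was not computed. The separation is therefore not shown to be particular to Cd14.

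Cd14 averaged 499 ± 135 in combination 10 µg tumours and 309.7 ± 38.9 in isotype tumours (SD, n = 4 each), 1.57-fold higher (95% interval 1.22 to 2.03; log2 change 0.65 ± 0.18, adjusted p = 0.0157). In this comparison 19.7% of the 750 genes passed, 129 higher and 19 lower, against 75 and 29 on library medians and 91 and 104 after quantile normalization; leaving out 1 mouse gave 63 to 227 genes, against 148 with all. Of the 10 macrophage genes 3 did, Emr1, Cd68 and Cd14, with a median log2 change of 0.60 over the 10 and 0.05 over all genes. The Cd14 call was lost without combination 10 µg replicate 3 (0.52, adjusted p = 0.071), and without the 4 libraries of high dim-end signal (0.57, adjusted p = 0.170). On library medians it was 0.47 (adjusted p = 0.0694), and after quantile normalization 0.21. Without those 4 libraries 0 of the 750 genes passed in limma, and 163 had an unadjusted p under 0.05. Between the combination doses the log2 change of Cd14 was 0.62 ± 0.18 for 10 µg against 2 µg, with an unadjusted p of 0.00257 and an adjusted p of 0.542, and with any NHS-muIL12 it was 0.15 ± 0.11 (adjusted p = 0.372). Of 7 genes of the lipopolysaccharide receptor pathway, 2 rose with any NHS-muIL12, a count near the background of 22.7% in that comparison. They were Tlr4 (0.65 ± 0.16) and the adaptor Ticam2 (1.72 ± 0.50), and neither passed without the 4 libraries.

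**Figure D2:**
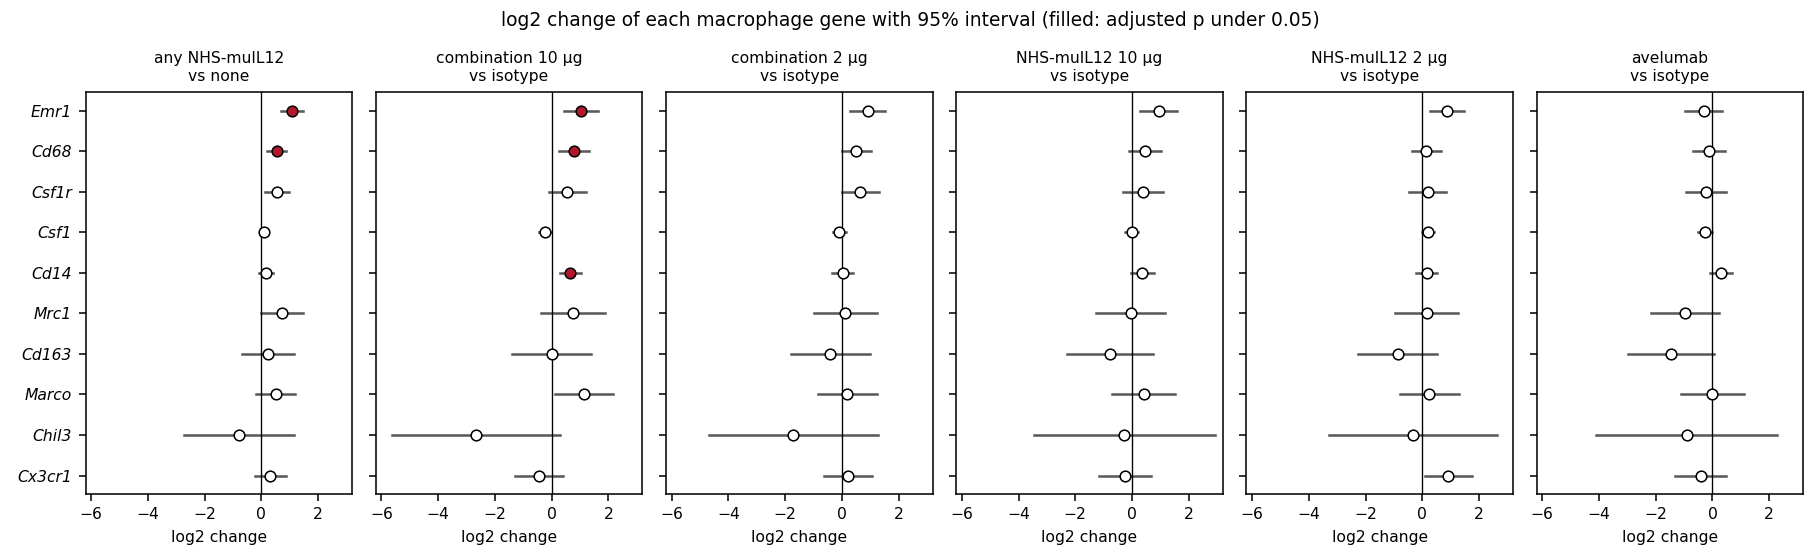
Change of each macrophage gene on the log2 scale with its 95% interval, for any NHS-muIL12 against none and for 5 treated groups against isotype; filled points passed the threshold. Emr1 and Cd68 are filled in the first panel and Emr1, Cd68 and Cd14 in the second, and the interval of Chil3 is the widest in every panel. The Marco changes are set against groups listed at 0 and are no measure of a fold.

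The remaining contrasts with isotype called none of the 10 genes. For NHS-muIL12 10 µg the background, the share of all tested genes that passed, was 10.5% of 750 genes, for combination 2 µg it was 9.47%, and for NHS-muIL12 2 µg and for avelumab it was 0%. Leaving out 1 mouse moved the count of genes called to 23 to 90 for NHS-muIL12 10 µg (79 with all mice) and to 16 to 140 for combination 2 µg (71). Unadjusted p values under 0.05 numbered 170, 211, 59 and 38 in these contrasts. The split of higher and lower genes moved with the scaling: for NHS-muIL12 10 µg it was 75 and 4 as deposited, 39 and 7 on library medians and 58 and 42 after quantile normalization, and for combination 2 µg it was 58 and 13, 46 and 25, and 72 and 58. Against avelumab, combination 2 µg called 1 of the 10, Emr1, with a background of 10.8%, and combination 10 µg called 3, Emr1, Cd68 and Mrc1, with a background of 16.9%. Leaving out 1 mouse gave 0 to 95 genes (81 with all mice) and 52 to 144 genes (127) in these comparisons, and on library medians the 1 gene called in combination 2 µg was Cd14. Against avelumab the splits as deposited, on library medians and after quantile normalization were 72 and 9, 25 and 42, and 41 and 35 for combination 2 µg, and 124 and 3, 40 and 28, and 55 and 70 for combination 10 µg. The 1 of 10 is near its background, and 3 of 10 is a share that 1 or 2 genes would change.

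Between doses and between combinations and NHS-muIL12 alone, none of the 10 genes passed. The background was 0% of the 750 genes for NHS-muIL12 10 µg against 2 µg, for combination 10 µg against combination 2 µg and for combination 10 µg against NHS-muIL12 10 µg, and 0.267% for combination 2 µg against NHS-muIL12 2 µg. The interaction of the agents, the combination set against the sum of its single agents on the log2 scale, also had a background of 0% at both doses. Unadjusted p values under 0.05 numbered 103, 35, 35 and 83 in the 4 direct comparisons, and 37 and 16 in the interactions at 2 and 10 µg.

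Mrc1, the mannose receptor CD206 that takes up glycoproteins and is often used to mark alternatively activated macrophages, varied widely among mice of the same group. The signal with avelumab was 374, 96.5 and 487 at 0 µg, 427, 387, 858 and 683 at 2 µg, and 377, 822, 1317 and 1356 at 10 µg. The mice not given avelumab had 564, 269.7, 459 and 973 at 0 µg, 579, 627, 416 and 692 at 2 µg, and 962, 377 and 332 at 10 µg. The lowest of all mice was avelumab replicate 3 and the highest were combination 10 µg replicates 3 and 4, while every group had mice within the isotype range.

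Mrc1 averaged 968 ± 463 in combination 10 µg tumours (SD, n = 4) and 319 ± 201 in avelumab tumours (SD, n = 3), 3.31-fold higher with an interval of 1.43 to 7.67 (log2 change 1.73 ± 0.58, adjusted p = 0.0481). That call was lost on library medians (1.25, adjusted p = 0.133), after quantile normalization (1.18, adjusted p = 0.122), with sample weights (1.44, adjusted p = 0.0696) and with only the groups compared (1.73, adjusted p = 0.225). It was also lost without the 4 libraries of high dim-end signal, none of them in these groups (1.73, adjusted p = 0.062), without avelumab replicate 2 (1.99, adjusted p = 0.074), without avelumab replicate 3 (1.01, adjusted p = 0.294), and without combination 10 µg replicate 2 (1.75), 3 (1.52) or 4 (1.51), with adjusted p values of 0.067, 0.160 and 0.119. Against isotype, combination 10 µg gave 0.76 ± 0.53 (adjusted p = 0.333), and any NHS-muIL12 gave 0.73 ± 0.35 (adjusted p = 0.141). The interaction at 10 µg was 1.77 ± 0.81, with an unadjusted p of 0.0436 and an adjusted p of 0.992.

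Cd163, the scavenger receptor for haemoglobin bound to haptoglobin, passed in none of the 15 comparisons. With avelumab, its signal was 88.8, 20.6 and 53.3 at 0 µg, 45.3, 69.2, 146 and 202 at 2 µg, and 34.6, 128, 245 and 260.3 at 10 µg. Without avelumab, it was 155, 98.8, 85.7 and 218 at 0 µg, 55.8, 61.5, 87.5 and 84.3 at 2 µg, and 218, 45.9 and 43.3 at 10 µg. Within combination 10 µg it spanned most of the range of all 22 mice, and every pair of groups overlapped. Against isotype the interval of the log2 change ran from -1.41 to 1.40 for combination 10 µg, and the change was -1.47 ± 0.72 for avelumab (adjusted p = 0.715), and with any NHS-muIL12 it was 0.23 ± 0.44. The interaction at 10 µg was 2.24 ± 1.02, with an unadjusted p of 0.0415 and an adjusted p of 0.992.

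Mrc1 and Cd163 followed each other across mice. Over 22 mice, taken as deviations from their group means, Pearson's r was 0.85 and Spearman's rho 0.84, with permutation p of 4.70e-04 and 6.10e-04. Adjusted over the 28 pairs of the 8 brighter genes these were 0.0132 and 0.0171, and r was 0.79 without the 2 mice farthest from the median of Mrc1. The other 27 pairs did not pass; the closest were Emr1 with Cd68 (r = 0.72, rho = 0.66), Cd68 with Csf1r (r = 0.67, rho = 0.69) and Emr1 with Csf1r (r = 0.66, rho = 0.59), each with an adjusted permutation p of 0.0607 for r. Without the 2 farthest mice these 3 values of r were 0.57, 0.57 and 0.50.

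**Figure D3:**
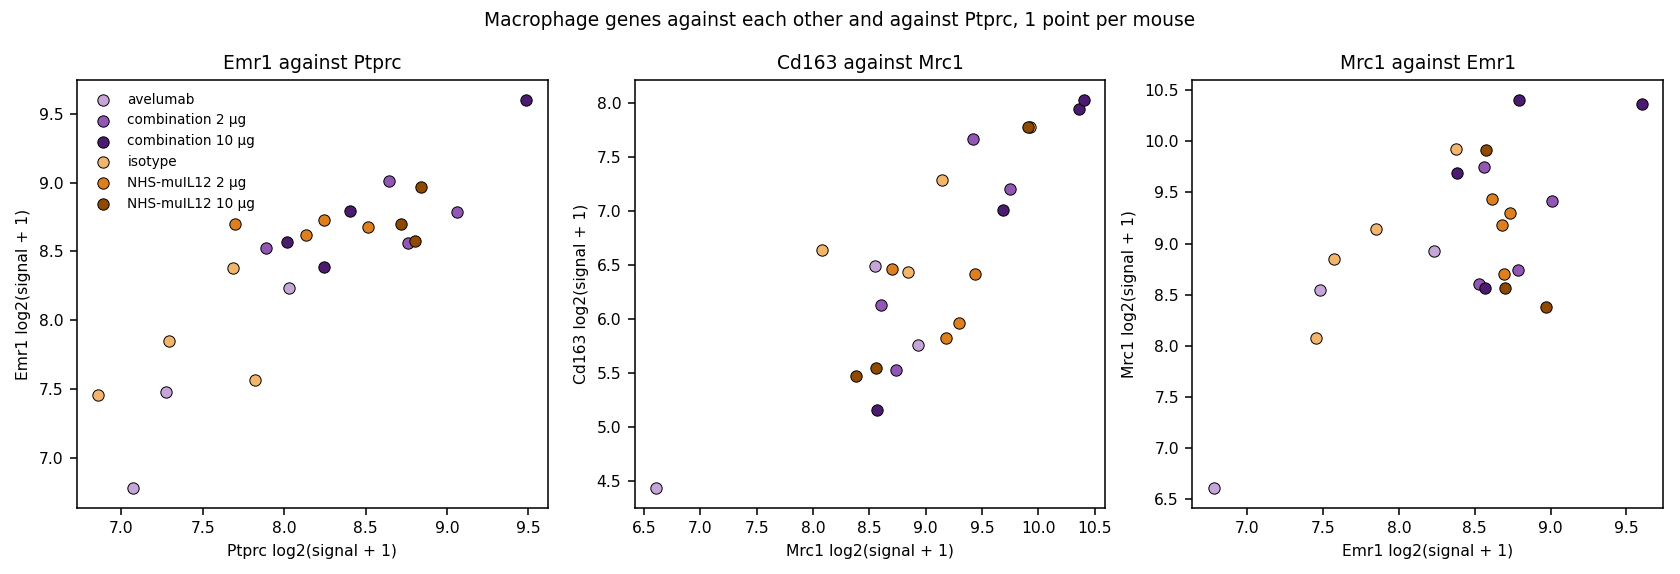
Emr1 against Ptprc, Cd163 against Mrc1 and Mrc1 against Emr1, each axis as log2(signal + 1) and each point 1 mouse coloured by group. In the first panel the mice given NHS-muIL12 lie to the upper right of most of the others, and in the second Cd163 and Mrc1 run from low to high together, with the combination 10 µg mice spread over most of the range.

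Marco, a class A scavenger receptor that binds bacteria and particles, was listed at 0 in 17 of 22 mice. Its 5 values above 0 all came from mice given NHS-muIL12: 0.706 in combination 2 µg replicate 4, 6.51 and 2.14 in combination 10 µg replicates 2 and 3, and without avelumab 1.03 at 2 µg (replicate 4) and 1.35 at 10 µg (replicate 2). These values sit at the bottom of the scale, where background subtraction sets many genes to 0, and no fold is given against groups listed at 0. Marco passed in no comparison, and in combination 10 µg against isotype it passed without combination 10 µg replicate 1 or 4 (adjusted p = 0.037 and 0.041).

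Chil3, the chitinase-like protein Ym1 secreted by alternatively activated macrophages, had the widest spread, a residual SD of 2.07 on the log2 scale. In avelumab-treated mice the signal was 9.87, 39.9 and 11.2 at 0 µg, 12.7, 2.94, 12.5 and 13.5 at 2 µg, and 0.245, 3.34, 8.40 and 13.1 at 10 µg. In mice without avelumab it was 129, 174, 0 and 51.3 at 0 µg, 9.57, 39.0, 227 and 4.11 at 2 µg, and 22.1, 11.2 and 71.8 at 10 µg. The 4 highest values, 71.8 to 227, belong to the 4 libraries of high dim-end signal, and the other 18 mice lay between 0 and 51.3. For combination 10 µg against isotype the log2 change was -2.68 ± 1.41 (adjusted p = 0.188) with all libraries and -0.48 without those 4. Chil3 has a near-identical neighbour, Chil4, and whether the probe tells them apart is not given in the sources used here.

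Cx3cr1, the fractalkine receptor of monocytes and of resident macrophages, was highest with 2 µg NHS-muIL12 alone. The signal with avelumab was 106, 66.1 and 283 at 0 µg, 202, 321, 202 and 113 at 2 µg, and 129, 149, 111 and 107 at 10 µg. The mice not given avelumab had 165, 126, 137 and 283 at 0 µg, 214, 281, 371 and 473 at 2 µg, and 107, 156 and 169 at 10 µg. All 4 mice at 2 µg without avelumab lay above all 3 at 10 µg, and with avelumab the 4 mice at 10 µg lay below 3 of the 4 at 2 µg. How many of all tested genes separate the doses in this way was not counted, so the pattern is not shown to be particular to Cx3cr1. Cx3cr1 averaged 144 ± 32.7 with NHS-muIL12 10 µg (SD, n = 3) and 335 ± 112 with 2 µg (SD, n = 4), 0.443-fold (log2 change -1.17 ± 0.43, unadjusted p = 0.0140, adjusted p = 0.213). With avelumab the log2 change of 10 µg against 2 µg was -0.67 ± 0.40, and for NHS-muIL12 2 µg against isotype it was 0.93 ± 0.40 (adjusted p = 0.559). None of these passed.

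Ptprc, the pan-leukocyte gene CD45, was used to set the 10 genes against leukocyte signal in the same tumour. It was itself 2.11-fold higher with any NHS-muIL12 (log2 change 1.08 ± 0.21, adjusted p = 0.00118), with means of 183 ± 67.8, 400.2 ± 123 and 404 ± 211 at 0, 2 and 10 µg with avelumab and 175 ± 49.7, 289 ± 65.4 and 441 ± 19.4 without. Relative to Ptprc, the change of Emr1 with any NHS-muIL12 was 0.01 on the log2 scale (95% interval -0.36 to 0.38). The ratio of the Emr1 to the Ptprc signal averaged 1.04 ± 0.195, 1.13 ± 0.349 and 1.24 ± 0.182 at 0, 2 and 10 µg with avelumab, and 1.36 ± 0.351, 1.48 ± 0.369 and 0.979 ± 0.119 without.

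Several of the other genes lay lower relative to Ptprc, which itself rose where the median log2 change of all genes was 0.07. A gene that did not change therefore lies below 0 on this measure. Relative to Ptprc, Cd68 changed by -0.54 (-0.84 to -0.23), Csf1r by -0.52 (-0.99 to -0.04), Cd14 by -0.93 (-1.37 to -0.49), Csf1 by -0.98 (-1.46 to -0.51) and Cx3cr1 by -0.76 (-1.44 to -0.08). The intervals of Mrc1, -0.35 (-0.96 to 0.26), Cd163, -0.85 (-1.75 to 0.04), and Chil3, -1.86 (-3.87 to 0.15), held 0. Marco is left out, because it was listed at 0 in every mouse without NHS-muIL12 and its value here would mostly follow Ptprc. A ratio within a library shows unequal change and not which of the genes moved. Not set against Ptprc, the log2 changes of Csf1, Cd14, Cx3cr1, Cd68 and Csf1r were 0.10, 0.15, 0.32, 0.54 and 0.56.

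With any NHS-muIL12, 22.7% of all 750 genes passed, and the gene lists were chosen with earlier results of these data known. Among 22 further macrophage genes on the panel, out of 24 listed, 16 rose in this comparison and 0 fell, with a median log2 change of 0.86. The largest changes were those of the Fc receptor Fcgr4 (2.45 ± 0.30), Cybb, the catalytic subunit of the phagocyte oxidase (1.63 ± 0.23), Cd36, a scavenger receptor for oxidised lipids (1.42 ± 0.28), and the Fc receptor Fcgr1 (1.39 ± 0.23). For combination 10 µg against isotype 14 of 22 rose, against a background of 19.7%. For NHS-muIL12 10 µg and for combination 2 µg 8 each rose (backgrounds 10.5% and 9.47%), and for NHS-muIL12 2 µg and avelumab 0 (0% each). Their summed signal was 8838 to 23716.5, 24677 to 30683 and 21931 to 48728 at 0, 2 and 10 µg with avelumab, and 9943 to 19183.5, 18732 to 23479 and 24618.5 to 27992 without. Without the 4 libraries of high dim-end signal 13 of 22 rose with any NHS-muIL12, where 135 of all 750 genes passed. In combination 10 µg against isotype 0 of 22 rose, where 0 of all 750 passed, and the median was still 0.91. Centred on library medians, 10 of the 22 rose and 1 fell with any NHS-muIL12, where 96 of all 750 genes rose and 142 fell.

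The 6 other scavenger receptors on the panel include 3 that also count among the further macrophage genes. These 3 were the ones that rose with any NHS-muIL12 and in combination 10 µg, against backgrounds of 22.7% and 19.7%. They were Cd36, Clec7a (1.17 ± 0.21), the beta-glucan receptor, and Msr1 (0.80 ± 0.17), the class A receptor for modified lipoproteins. Of 9 genes of monocyte recruitment, 6 rose with any NHS-muIL12, against the same background of 22.7%, and 3 did so without the 4 libraries. Among the 6 were the chemokines Ccl8 (2.11 ± 0.42), Ccl7 and Ccl2 and the receptor Ccr2 (1.22 ± 0.29). The 5 genes of the colony-stimulating factor family other than Csf1 and Csf1r had no call and a median of -0.07, with Csf2rb at 0.39.

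Genes used to mark classical activation, the state that interferon-gamma favours, included 4 of 14 that rose with any NHS-muIL12: the chemokines Cxcl9 (3.02 ± 0.35) and Cxcl10 (1.36 ± 0.23), the transcription factor Irf5 (0.99 ± 0.15) and the co-stimulator Cd86 (0.92 ± 0.17). Of 12 genes that mark alternative activation, the state with which Mrc1, Cd163 and Chil3 are usually grouped, 2 rose: Socs1 (0.95 ± 0.24), an inhibitor of cytokine signalling that interferon-gamma also induces, and arginase, Arg1 (0.83 ± 0.19). Their medians were 0.43 and 0.12, and both counts are near the background of 22.7% in this comparison, so they single out neither list. Cxcl9 averaged 83.3 ± 22.4, 800.4 ± 455 and 963 ± 768 at 0, 2 and 10 µg with avelumab, and 79.6 ± 57.3, 236 ± 95.3 and 1159 ± 242 without.

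**Figure D4:**
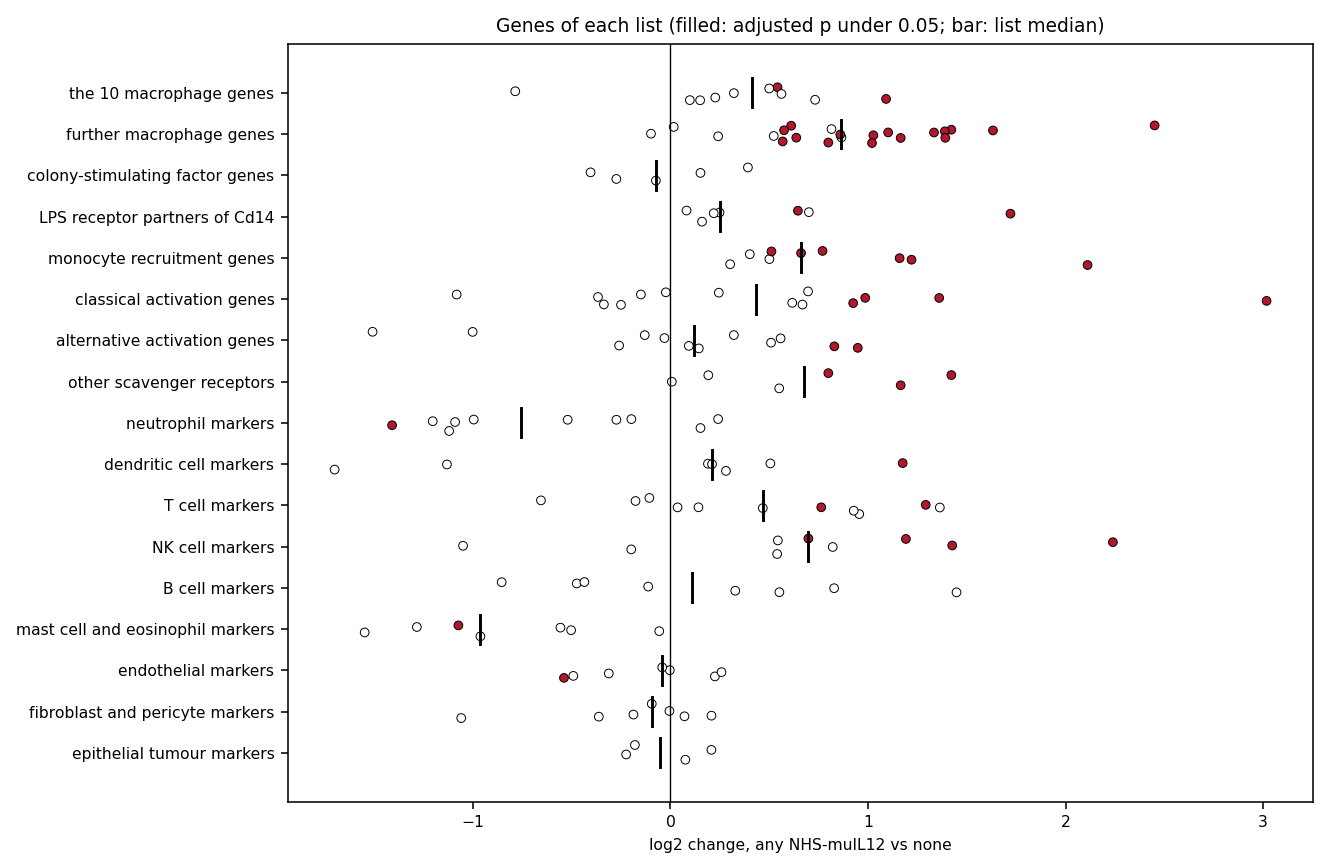
Change of each gene with any NHS-muIL12 on the log2 scale, by gene list, with filled points past the threshold and a bar at the list median. The further macrophage genes lie mostly to the right of 0, at a median of 0.86, and the 10 macrophage genes at a median of 0.41, with only Emr1 and Cd68 filled.

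Some markers of other cell types passed as well, against a background of 22.7%, and their part in the values above was not tested. Of 9 NK cell markers 4 rose with any NHS-muIL12, Klrc1, Klrd1, Klrk1 and Ncr1, and the summed signal of the list was 117 to 205, 217 to 432 and 266 to 927 at 0, 2 and 10 µg with avelumab, and 141 to 407, 138 to 468 and 360.3 to 618 without. Of 11 T cell markers 2 rose, Cd3g and Lck, a share below the background, and without the 4 libraries Lck alone passed (Cd3g 1.44, adjusted p = 0.0631). The T cell sums were 104 to 213, 160.2 to 343 and 169 to 589 with avelumab and 102 to 527, 99.7 to 571 and 194 to 466 without. Of 10 genes listed as neutrophil markers, of which Prg2 is better known from eosinophils, 0 rose and Mmp9 fell (-1.41 ± 0.37). The summed signal of these 10 was 963 to 2865, 770.2 to 1008 and 745 to 1933 with avelumab and 1598 to 2505, 884 to 1934 and 1341.5 to 1964 without. The sums of this list in combination 10 µg ran lower than those of isotype and overlapped them. S100a8 and Mmp9 were the brightest genes of the list, with mean signals of 874 and 395. Whether neutrophils had a part in the Cd14 values was not tested.

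Of 7 dendritic cell markers 1 rose, Cd1d1, and of 7 mast cell and eosinophil markers 1 fell, Tpsab1 (-1.07), which did not pass without the 4 libraries (-1.11, adjusted p = 0.0647). Of 7 endothelial markers 1 fell, Cdh5 (-0.54), and none of 8 B cell, 7 fibroblast and pericyte and 4 epithelial markers passed. Camp, a granule gene of neutrophils, was listed at 0 in 21 mice and Cxcr1 in 15, the B cell genes Blk and Tnfrsf13c in 16 each and Cd79a in 13, and the mast cell gene Ms4a2 in 13. Emr1, Cd68 and Csf1r were above 0 in all 22 mice, as were the neutrophil genes S100a8, Mmp9, Csf3r, Cxcr2 and Mpo. Of the 10 macrophage genes, Marco was listed at 0 in 17 mice and Chil3 in 1.

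For the 8 genes whose mean signal reached 50, the 3 genes with the most similar pattern over the 22 mice were sought among 442 others, by Pearson's r of log2(signal + 1). These values describe likeness in these libraries, which share their treatments and depth. Closest to Emr1 were C1qb (r = 0.96), Txnip (0.95) and Ctss (0.95), where the median candidate had 0.34, and closest to Cd68 were Ctsh (0.94), Cd84 (0.93) and Fcer1g (0.92). Csf1r lay closest to C1qb (0.86), C1qa (0.83) and Lcp1 (0.83). Thus C1qb, a chain of the complement component C1q that macrophages make, stood first for both Emr1 and Csf1r.

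The scavenger receptors had other neighbours. Closest to Mrc1 were F13a1 (0.93), C5ar1 (0.87) and Lbp (0.87), and closest to Cd163 were F13a1 (0.86), Eng (0.80) and Lyve1 (0.79). F13a1, the coagulation factor chain found in some tissue macrophages, stood first for both, with r of 0.94 and 0.86 within groups. Cd14 lay closest to Cdkn1a (0.77), Arg1 (0.72) and Ccr1 (0.70), and Cx3cr1 to Tgfbr1 (0.87), Gpr183 (0.86) and Tgfb3 (0.82). Csf1 lay closest to Tgfbr1 (0.71), Dusp6 (0.66) and Vcam1 (0.64), but within groups these 3 values were 0.41, 0.56 and 0.55.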

How the data were processed

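Total RNA of EMT-6 tumours from 22 mice was read on a NanoString panel of 770 genes. The deposited values are a linear signal per gene and sample that the authors had background-subtracted and scaled, per the labels; how background and scale were computed, and with which software, is not given in the sources used here. Of all values, 9.44% are 0, and no counts or depths are used, so that counting error is unknown and the number of mice limits precision. Samples were grouped by the treatments in the labels. The series text gives 4 mice per group, and the mice beyond the 3 in avelumab and in NHS-muIL12 10 µg were not analysed here.

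From the deposited signal, log2(signal + 1) was fitted with limma 3.58.1 in R 4.3.3 with 6 group means and 16 residual degrees of freedom; a fold change on this scale understates the change of dim genes. The 20 housekeeping genes, picked by hand as common reference genes, were left out, and p-values were adjusted by Benjamini-Hochberg over the other 750 genes within each of 15 comparisons. Any NHS-muIL12 against none is the mean of 4 group means minus that of 2, and any avelumab the mean of 3 minus that of 3. Named genes were all 10 macrophage genes, genes of the 16 lists that passed, and the 3 nearest genes by Pearson's r. The fit was tested on simulated data. Within-group correlations were tested with 100000 permutations within groups. The genes and lists were chosen with earlier results of these data known. Alternatives were the pseudocount, a filter on dim genes, 3 scalings, sample weights with statmod 1.5.0 loaded, the prior on the spread, the samples in the fit, a replicate block and libraries left out.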

Additional observations from a re-analysis of the deposited data

Results flagged for a closer look

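In groups of 4 mice, a mouse was noted where its gap to the nearest other exceeded Dixon's 95% critical value, which chance gives in about 1 in 20 groups; 4 of 39 were noted, 2 of them for Marco. Csf1r was 742 in combination 10 µg replicate 3, against 389 to 431 in the other mice of its group, and that library also had the highest total signal. Marco was 0.706 in replicate 4 of combination 2 µg and 1.03 in replicate 4 of NHS-muIL12 2 µg, each against 0 in the other mice of its group, where any value above 0 meets the criterion, so that the chance rate does not apply to these 2. Chil3 was 2.94 in combination 2 µg replicate 2, against 12.5 to 13.5 in the others.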

How the results depend on the processing

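The rise of Emr1 with any NHS-muIL12 passed in all 31 alternatives and that of Cd68 in 26 of 31. Counts of the 10 macrophage genes past the threshold moved as follows. With any NHS-muIL12 (2) the count was 1 on library medians, after quantile normalization and without the 4 libraries of high dim-end signal. In combination 10 µg against isotype (3) it was 1 on library medians (Emr1), 1 after quantile normalization (Csf1, lower), and 0 with only the groups compared or without the 4 libraries. Against avelumab, combination 10 µg (3) gave 0 on library medians, 1 after quantile normalization and 0 with only the groups compared, and combination 2 µg (1) gave 1 on library medians, Cd14 in place of Emr1, 2 after quantile normalization, 0 with only the groups compared and 3 with sample weights. With sample weights further counts moved, all from 0. Against isotype the count was 1 for NHS-muIL12 2 µg, 2 for NHS-muIL12 10 µg, 1 for avelumab and 4 for combination 2 µg. It was 1 for NHS-muIL12 10 µg against 2 µg and 2 for any avelumab. Calls among all tested genes rose with this setting too. In the same order they numbered 90, 255, 98, 308, 63 and 136. The counts with sample weights therefore do not single out macrophage genes. Against isotype, Emr1 also passed for NHS-muIL12 10 µg and for combination 2 µg (1 each) with a mean signal of at least 20 or with a trended, robust prior, and for combination 2 µg (1) with a pseudocount of 10. Csf1 in avelumab against isotype had the other sign on library medians, 0.032 (adjusted p = 0.946). Why these values moved was not tested, beyond the fewer samples or genes some settings hold.

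Leaving out 1 mouse at a time gave counts of 1 to 3 with any NHS-muIL12, 0 to 4 in combination 10 µg against isotype or avelumab, 0 to 2 in combination 2 µg against avelumab, 0 to 1 in combination 2 µg and in NHS-muIL12 10 µg against isotype, and 0 to 0 in the other 9 comparisons. No sign that replicate numbers pair the mice was seen. Deviations of same-numbered mice had a median r of 0.007 (50 pairs, -0.83 to 0.68), against 0.019 for others (151 pairs, -0.75 to 0.81). With ranges this wide, in groups of 3 or 4 mice, these values cannot decide whether the mice were paired. With the replicate number as a block, Emr1 passed in NHS-muIL12 10 µg against isotype (1 gene; log2 change 1.04, adjusted p = 0.038), and the count with any NHS-muIL12 was 3.

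Over all 750 genes, leaving out 1 mouse gave 136 to 181 calls with any NHS-muIL12. In other settings these calls (170) numbered 290 after quantile normalization and 310 with sample weights. Against isotype, sample weights gave 269 for combination 10 µg (148), 308 for combination 2 µg (71), 255 for NHS-muIL12 10 µg (79), 90 for NHS-muIL12 2 µg (0) and 98 for avelumab (0); quantile normalization gave 130 for combination 2 µg, library medians 46 for NHS-muIL12 10 µg, and a pseudocount of 10 or the filter 1 for NHS-muIL12 2 µg. With only the groups compared, combination 10 µg had 0 and combination 2 µg 16, and without the 4 libraries all 3 of the called contrasts with isotype had 0. Against avelumab, combination 2 µg (81) had 0 with only the groups compared, 217 with sample weights and 47 without the 4 libraries, and combination 10 µg (127) had 68 on library medians and 0 with only the groups compared. Sample weights also gave 63 for NHS-muIL12 10 µg against 2 µg (0), 50 for combination 2 µg against NHS-muIL12 2 µg (2) and 136 for any avelumab (0), where library medians gave 5 and quantile normalization 2. Groups of 3 or 4 mice and dim genes set to 0 limit what can be detected; Marco was at 0 in 17 of 22 mice.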
